A study of Mus with 4 samples.

Results

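Nuclear genes of the oxidative phosphorylation complexes were followed through m6A peaks of interscapular brown adipose tissue (iBAT). A gene was a member when its symbol in a peak list began with Nduf, Uqcr, Atp5, Cox4, Cox5, Cox6, Cox7 or Cox8, or was *Sdha*, *Sdhb*, *Sdhc*, *Sdhd*, *Cyc1* or *Cycs*, and *Cox7a1* and *Cox8b* were left out. By this rule 68 of 11431 genes with a peak were members, and they carried 62 of 18400 peaks in the control list and 70 of 18693 peaks in the knockout list. The names also take in 8 assembly factors of complex I and *Atp5s*, which are not subunits of a complex and are given apart from the subunits where the values differ. *Cox7a2l*, a factor of the supercomplexes that complexes III and IV form, was kept in the counts of subunits.

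The respiratory chain sits in the mitochondrial inner membrane. Complex I takes electrons from NADH and complex II from succinate, complex III passes them to cytochrome c, complex IV hands them to oxygen, and complex V, the ATP synthase, makes ATP from the proton gradient. Brown fat is rich in mitochondria and burns fuel through this chain to make heat, since uncoupling protein UCP1 lets protons back in without ATP synthesis. m6A is a methyl mark on adenosines of mRNA, laid down by a methyltransferase complex in which WTAP holds the catalytic METTL3 and METTL14 in place.

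The study asked which m6A marks of iBAT mRNA depend on WTAP. *Wtap* flox/flox mice, which carry floxed *Wtap* alleles and no Cre, were the controls, and *Wtap*-BKO mice carry the same floxed alleles with *Ucp1*-iCre, so that *Wtap* is deleted where *Ucp1* is active, as in brown adipocytes, and the other cells of the tissue keep it. All mice were C57BL/6 on a normal chow diet and were 8 weeks old. Fragmented poly(A)+ RNA pooled from 8 mice per genotype was immunoprecipitated with an m6A antibody, and 1 immunoprecipitate (IP) and 1 input were sequenced for each genotype. A peak is a run of exonic bases where the IP holds more reads than its input accounts for. Below, control stands for *Wtap* flox/flox, and positions are those of GRCm38.

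With 1 pool per genotype, no comparison of genotypes has a replicate check, and what follows describes these pools. Read totals do not come with the lists, and a gene without a listed peak is a gene with none past the authors' threshold, which a weakly transcribed or shallowly read gene can also be. Each peak carries a false discovery rate (FDR) and a fold enrichment (IP against input), and the 2 lists share no scale for either. Peaks were therefore placed within their own list, by the percentage of its peaks with a weaker FDR, and this value is called the percentile here. A percentile is relative, so a peak can stand higher in 1 list because other peaks there stand lower. A higher percentile is therefore no measure of more methylation. The FDR of a peak sharpens with the number of reads on the transcript as well as with its enrichment. *Wtap* itself had 4 peaks in either list, each with a counterpart in the other, and since a peak says little of transcript level this does not check the genotypes. The share of peaks found in the other list was 67.8% for all control peaks and 68.0% for all *Wtap*-BKO peaks, where found means at least 1 shared exonic base on the same strand. Of 16 skeletal muscle markers, 6 had peaks in both lists, 7 in the *Wtap*-BKO list only and 0 in the control list only, with 6 peaks in control and 20 in *Wtap*-BKO mice, and of 10 macrophage markers 5 were in both and 4 in the *Wtap*-BKO list only. Of 11 T/B lymphocyte markers, 2 were in both and 4 in the *Wtap*-BKO list only. Fibroblast markers (7 of 8) and endothelial markers (6 of 6) had peaks in both lists and none in 1 list only. They had 10 and 15 peaks in control and 11 and 18 in *Wtap*-BKO mice. Of 14 brown adipocyte markers, 13 had peaks in both lists, with 43 and 39 peaks. Skeletal muscle is also rich in these complexes, and the part of other cell types in the values below was not tested. In such bulk tissue, fewer cells of a type and less RNA per cell cannot be told apart.

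Of the 68 genes, 40 (58.8%) had peaks in both lists, 14 (20.6%) in the control list only and 14 (20.6%) in the *Wtap*-BKO list only. Among all 11431 genes with a peak, these shares were 70.1%, 15.0% and 14.9%. With an FDR under 1e-05 required in both lists, 34 of 54 members were in both, 9 in the control list only and 11 in the *Wtap*-BKO list only, against 64.8%, 20.6% and 14.5% of all genes. The share of members in both lists was below that of all genes at the authors' threshold and near it at the stricter one. Of 97 mouse gene names that the rule takes in, 29 had no peak in either list. Among these were *Cyc1*, the cytochrome c1 of complex III, the subunits *Uqcrc1* and *Uqcrc2* of the same complex, *Cox4i1*, a large nuclear subunit of complex IV, and *Ndufs7*, an iron-sulfur subunit of complex I.

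**Figure D1:**
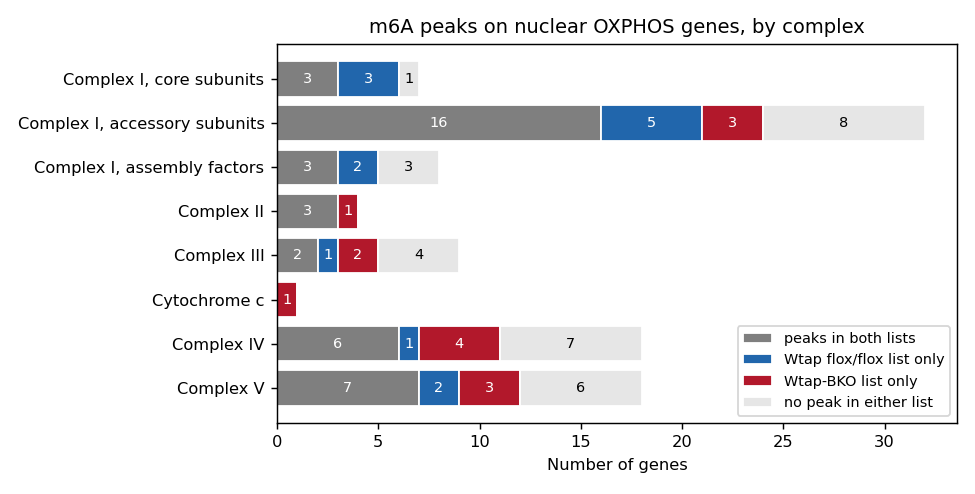
Number of genes (horizontal axis) of each complex or gene class (vertical axis) with m6A peaks in both lists, in the control (*Wtap* flox/flox) list only, in the *Wtap*-BKO list only or in neither. Complex I was split 10 against 3 towards the control list among genes listed once, and complexes II to V with cytochrome c were split 4 against 11.

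Genes listed once fell unevenly over the complexes. In complex I, 35 of 47 genes had a peak, 22 in both lists, 10 in the control list only and 3 in the *Wtap*-BKO list only. In complex II the counts were 3 in both and 1 in the *Wtap*-BKO list only, of 4 genes. Complex III had 2 in both, 1 in the control list only and 2 in the *Wtap*-BKO list only, of 9 genes. Complex IV had 6, 1 and 4 of 18 genes, and complex V had 7, 2 and 3 of 18 genes, in the same order. Cytochrome c (*Cycs*), the soluble carrier between complexes III and IV, had a peak in the *Wtap*-BKO list only. Many of these peaks were weak. Of the 14 genes in the control list only 8 had a peak with an FDR under 1e-05, and of the 14 in the *Wtap*-BKO list only 7 did, so the split between complexes is a description of the lists. The same counts over all genes are not given here.

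The core of complex I holds the flavin and the iron-sulfur clusters that carry electrons from NADH to ubiquinone. *Ndufs8* and *Ndufv2*, both iron-sulfur subunits, each had 1 peak in the control list only, with log10 FDR of -5.31 and -3.76, which put them at percentiles 38.6 and 26.2. Core genes in both lists numbered 3. *Ndufv1*, which binds the flavin and takes up NADH's electrons, had log10 FDR -19.6 in control and -47.9 in *Wtap*-BKO mice (percentiles 72.8 and 92.6). *Ndufs1*, the largest iron-sulfur subunit, had -18.7 and -22 (percentiles 71.8 and 82.2), and *Ndufs3* had -4 and -12.4 (percentiles 28.3 and 69.2), although the *Ndufs3* peak of the *Wtap*-BKO list shares bases with another listed gene. These core genes were thus either absent from the *Wtap*-BKO list or stood at a higher percentile there.

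Of 32 accessory genes of complex I, 16 had peaks in both lists, 5 in the control list only and 3 in the *Wtap*-BKO list only. The control list alone held *Ndufa2*, *Ndufa3*, *Ndufa13*, *Ndufb5* and *Ndufc2*, of which *Ndufa2* was the strongest, with log10 FDR -33.2 and percentile 83.1. The other 4 lay between percentiles 10.9 and 52.2. The *Wtap*-BKO list alone held *Ndufa7*, *Ndufa9* and *Ndufb3*, with their strongest peaks at percentiles 51.1, 75.3 and 72.5. Apart from *Ndufa2*, none of these 8 genes stood above percentile 75.3.

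Accessory genes in both lists were among the strongest peaks of the members. *Ndufv3*, a small subunit beside the flavin site, carried 3 peaks in each list and the strongest complex I peak of the control list, which covered 840 bases of chr17:31527318-31528157 at log10 FDR -233. The *Wtap*-BKO peak that shared most bases with it covered 720 bases at -86.6, and the percentiles were 98.7 and 96.9. *Ndufb9* had the strongest complex I peak of the *Wtap*-BKO list, at log10 FDR -122 against -65.8 in control mice. *Ndufs6*, a zinc-binding subunit, had a peak at identical coordinates in both lists, chr13:73328303-73328542, with log10 FDR -44.8 and -82.3, and its fold enrichment was 8.09 in control and 42.2 in *Wtap*-BKO mice. *Ndufa8* had -26.1 in control and -79.8 in *Wtap*-BKO mice (percentiles 78.7 and 96.4). *Ndufab1*, the mitochondrial acyl carrier protein, had 1 peak in control and 3 in *Wtap*-BKO mice, the strongest at percentiles 63.1 and 62.2. In *Ndufs4*, the peaks of the 2 lists shared no base: the control peak began 665 bp from the gene start and the *Wtap*-BKO peak began 45 bp upstream of it, and both were weak (percentiles 24.3 and 24.6).

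The assembly factors of complex I, which help build the enzyme and leave it, stood lower in the *Wtap*-BKO list or were absent from it. Of the 5 with a peak, *Ndufaf3* and *Ndufaf7* were in the control list only, and *Ndufaf1*, *Ndufaf2* and *Ndufaf4* were in both. *Ndufaf7*, a mitochondrial arginine methyltransferase, had a log10 FDR of -59.5 and a fold enrichment of 14.8 in control mice. The strongest peak of each of the 3 genes in both lists had the lower percentile in *Wtap*-BKO mice, at 97.5 and 92.0 for *Ndufaf1*, 46.5 and 35.6 for *Ndufaf2*, and 97.3 and 88.5 for *Ndufaf4*. *Ndufaf4* had 4 peaks in control and 2 in *Wtap*-BKO mice. Its main control peak, chr4:24898649-24902053 in 2 blocks, covered 388 bases at log10 FDR -141 with a fold enrichment of 12.2, and the *Wtap*-BKO peak there covered 210 bases at -12.4 with a fold enrichment of 2.02. Its peak at the gene start stood the opposite way by percentile, at 47.3 in control and 88.5 in *Wtap*-BKO mice (log10 FDR -7.04 and -33).

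Complex II, succinate dehydrogenase, is encoded by 4 nuclear genes. *Sdhc* and *Sdhd*, the membrane anchors, had gene-start peaks in both lists, with log10 FDR -6.77 and -15.1 for *Sdhc* and -14.8 and -16.5 for *Sdhd* in control and *Wtap*-BKO mice. *Sdha*, the flavoprotein that oxidises succinate, had 2 peaks in each list. The one at its start covered the same 150 bases in both, at -9.15 and -7.44 (percentiles 54.5 and 55.2), and the distal ones shared no base. The strongest *Sdha* peak was the distal one in control mice (percentile 68.7) and the one at the start in *Wtap*-BKO mice. *Sdhb*, the iron-sulfur subunit, had a peak in the *Wtap*-BKO list only, at percentile 44.2 with a fold enrichment of 1.23.

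In complex III, the strongest gene of the control list was absent from the *Wtap*-BKO list. *Uqcrfs1*, the Rieske iron-sulfur protein, had a peak at chr13:30540989-30541285 with log10 FDR -98.7, stronger than 95.5% of its list, but its fold enrichment was 1.7, higher than in only 2.04% of the list. No other member gene listed once stood so high in its list. *Uqcrh*, the hinge protein next to cytochrome c1, had a peak of identical coordinates in both lists, at -59.9 and -113, and *Uqcr11* had -8.3 and -19.8. *Uqcr10* and *Uqcrb*, small accessory subunits, were in the *Wtap*-BKO list only, with log10 FDR -15.6 and -3.22. *Cycs* stood at percentile 14.7 of the *Wtap*-BKO list.

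Complex IV held some of the strongest peaks of the members and some of the weakest. *Cox5a* had log10 FDR -107 in control and -240 in *Wtap*-BKO mice, *Cox6b1* had -81.5 and -175, *Cox7b* had -39.9 and -100, and *Ndufa4*, a subunit of complex IV despite its name, had -9.48 and -28.4. *Cox6a1*, the non-muscle isoform of its subunit, had -34 and -30.7, and its percentile was nevertheless higher in *Wtap*-BKO mice, at 87.5 against 83.5. *Cox7a2l*, which joins complexes III and IV into supercomplexes, was the exception: its control peak covered 589 bases at an FDR listed as 0, and the *Wtap*-BKO peak covered 236 bases at -95.4 (percentiles 99.2 and 97.3). The genes of complex IV in 1 list only were all in the lowest 15% of that list by FDR. These were *Cox6b2*, a testis isoform, at percentile 12.6 of the control list, and *Cox5b*, *Cox7a2*, *Ndufa4l2* and *Cox6a2*, at 14.7, 6.66, 2.88 and 1.16 of the *Wtap*-BKO list. *Cox6a2* is the isoform of heart, skeletal muscle and brown fat. The tissue isoforms *Cox7a1* and *Cox8b*, which the rule leaves out, had peaks at the gene start in both lists, *Cox7a1* at -20.3 and -46.8 and *Cox8b* at an FDR listed as 0 in both.

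In complex V, each of the 7 genes in both lists had the higher percentile in *Wtap*-BKO mice. Among the membrane and stalk subunits, *Atp5g3*, which encodes the ring subunit c, had a peak of the same 210 bases in both lists (chr2:73910441-73911326, 3 blocks), with log10 FDR -33.8 and fold enrichment 2.58 in control mice and -155 and 5.52 in *Wtap*-BKO mice. Its paralogues *Atp5g1* and *Atp5g2* had no peak. *Atp5h*, the stalk subunit d, had -12.1 in control and -101 in *Wtap*-BKO mice (percentiles 61.4 and 97.6). *Atp5j2*, the membrane subunit f, had the strongest complex V peak of both lists, at -162 and -278 over the same 239 bases. *Atp5k* had -22 and -44. *Atp5f1*, the stalk subunit b, had a gene-start peak at percentiles 35.2 and 26.6 (-4.74 and -3.46), and a second, distal peak at -13.5 in *Wtap*-BKO mice. In the F1 head, *Atp5e* had -4.33 and -12.7 over the same 120 bases. *Atp5a1*, the alpha subunit, had peaks that shared no base, a weak one in control (-3.19, percentile 19.3) and one at -38.2 in *Wtap*-BKO mice (percentile 90.3), where *Atp5b*, the catalytic beta subunit, had a peak at -20.8 (percentile 81.0) and none in control mice. *Atp5d* and *Atp5j* were also in the *Wtap*-BKO list only, at percentiles 61.8 and 21.2. *Atp5o*, which links the head to the stalk, and *Atp5s* were in the control list only, at percentiles 29.4 and 11.9.

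**Figure D2:**
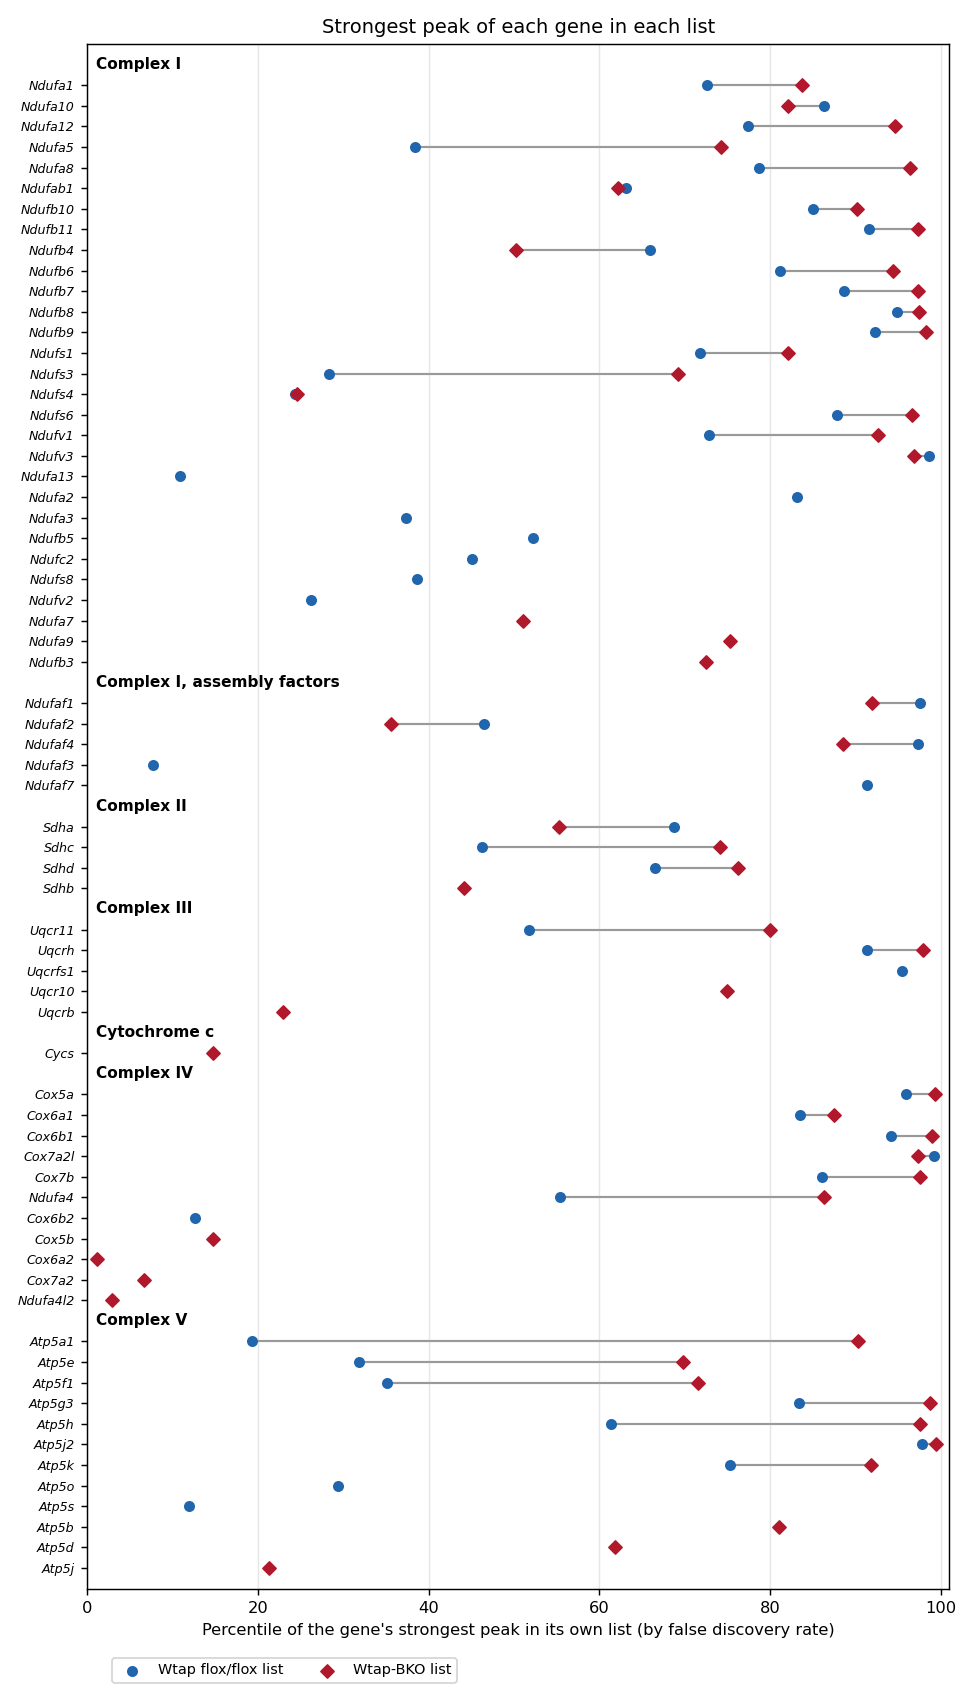
Percentile of the strongest peak of each gene drawn, within its own list by FDR (horizontal axis, 0 to 100), 1 gene per line, with control values as blue circles and *Wtap*-BKO values as red diamonds, joined where the gene is in both. Of 40 joined genes, 31 have the *Wtap*-BKO value to the right, including 7 of 7 in complex V and 0 of 3 complex I assembly factors.

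Gene by gene, the strongest peak had the higher percentile in the *Wtap*-BKO list for 31 of 40 members in both lists, with a median difference of 8.67 percentile points, against 51.8% of all 8014 genes in both lists, with a median of 0.358. By complex the counts were 15 of 22 in complex I, 2 of 3 in complex II, 2 of 2 in complex III, 5 of 6 in complex IV and 7 of 7 in complex V. Among the 22 of complex I, the subunits had 15 of 19 and the assembly factors 0 of 3. Apart from assembly factors, the genes with the lower percentile were *Ndufa10*, *Ndufab1*, *Ndufb4*, *Ndufv3*, *Sdha* and the supercomplex factor *Cox7a2l*.

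Peaks found in both lists were also compared one by one. Of 62 control member peaks, 42 (67.7%, 95% Wilson interval 55.4% to 78.0%) had a counterpart in the *Wtap*-BKO list, near the 67.8% of all peaks, and of 70 *Wtap*-BKO member peaks 42 (60%, interval 48.3% to 70.7%) had one in the control list. Of the 42 pairs, 33 (78.6%, interval 64.1% to 88.3%) had the higher percentile in *Wtap*-BKO mice, against 56.0% of all 12483 pairs. When percentiles were taken by fold enrichment, 32 of 42 were higher, against 50.8% of all pairs, but member peaks started low on that scale, where peaks in general stood higher in *Wtap*-BKO mice. Among pairs with a control percentile by fold under 25, the counts were 24 of 26 for members and 79.2% for all, and among the others they were 8 of 16 and 43.0%. In 25 of the 42 pairs the *Wtap*-BKO peak covered more bases, in 10 as many and in 7 fewer, whereas 41.2% of all pairs were longer and 47.8% shorter in *Wtap*-BKO mice. In the same classes by fold, the percentile by FDR was higher for 24 of 26 and 9 of 16 members, against 74.9% and 50.8% of all. The *Wtap*-BKO peak was longer for 18 of 26 and 7 of 16 members, against 59.1% and 36.3% of all. By FDR, by bases covered and by fold enrichment, the members' counts were above those of all pairs. For each of these the gap was smaller within the classes than over all 42 pairs. The 42 pairs lie on the transcripts of 2 pools and are no replicates of the genotypes.

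A percentile near 100 cannot go much higher, and in these lists strong peaks stood lower in *Wtap*-BKO mice more often than weak ones, so strong peaks were also counted apart. Among all pairs with a control percentile of at least 75, 40.1% of 4124 had the higher percentile in *Wtap*-BKO mice. Among subunits the count was 18 of 21. Among assembly factors of complexes I to V, in and outside the rule, it was 2 of 19. The assembly factor peaks among these were stronger to begin with, with a median control percentile of 94.0 against 87.9 for subunits and 87.8 for all, and were therefore counted in narrower classes. From percentile 75 to under 90, the *Wtap*-BKO percentile was higher for 11 of 12 subunit peaks, 2 of 5 assembly factor peaks and 43.8% of all 2427. At 90 or above it was higher for 7 of 9 subunit peaks, 0 of 14 assembly factor peaks and 34.7% of all 1697, where the assembly factor peaks were still the stronger, with a median control percentile of 96.9 against 94.8 for subunits.

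The 46 genes outside the rule that were listed as assembly factors give the wider view of the genes around these complexes. The term is used broadly, since *Atpif1*, *Lrpprc* and *Taco1* are not assembly factors in the strict sense. Their strongest peaks had percentiles of 47.0, 18.0 and 98.0 in control and 86.8, 2.24 and 47.1 in *Wtap*-BKO mice. Of the 46 genes, 32 had peaks in both lists, 5 in the control list only (*Sdhaf3*, *Sco2*, *Cox14*, *Coa6* and *Tmem70*), 6 in the *Wtap*-BKO list only (*Timmdc1*, *Bcs1l*, *Surf1*, *Cox16*, *Cox18* and *Cox20*) and 3 in neither. The strongest peak had the higher percentile in *Wtap*-BKO mice for 9 of 32, with a median difference of -16.3 percentile points, whereas for subunit genes it was 31 of 37, with a median of 9.71. By peak rather than by gene the contrast was smaller, since 17 of 36 assembly factor pairs and 32 of 38 subunit pairs had the higher percentile in *Wtap*-BKO mice.

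**Figure D3:**
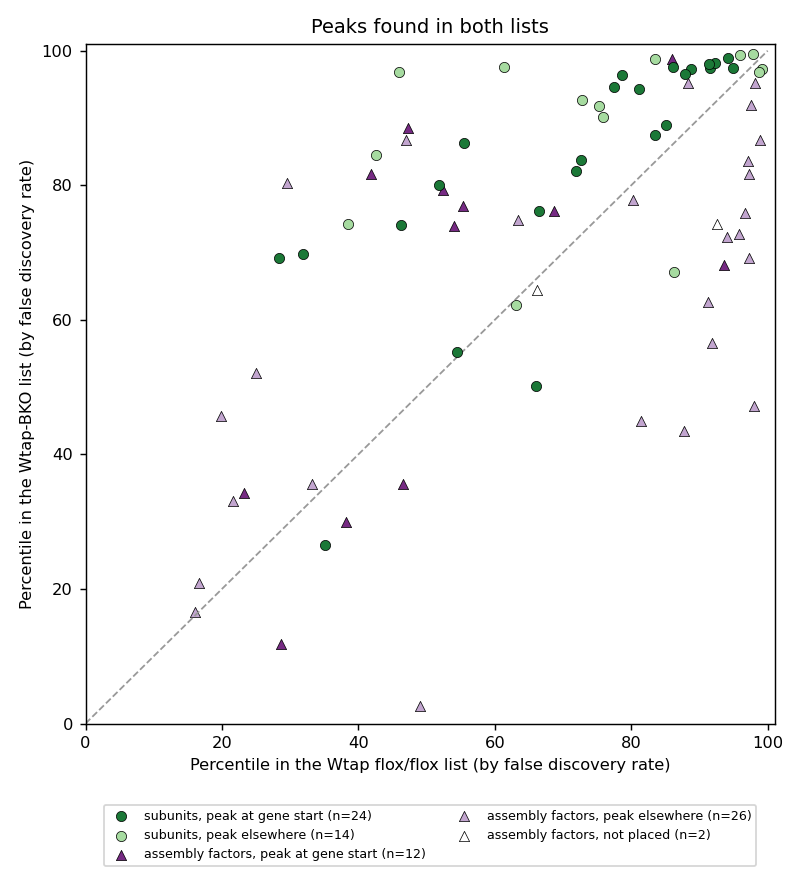
Percentile by FDR in the control list (horizontal axis) and in the *Wtap*-BKO list (vertical axis) of each peak found in both lists, for subunits (circles) and for assembly factors in and outside the rule (triangles), coloured by whether the control peak begins at the gene start. Points above the dashed line stand higher in the *Wtap*-BKO list: 32 of 38 subunit peaks and 18 of 40 assembly factor peaks.

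Many member peaks had a feature that the rule did not use, a place at the start of the gene. Among complexes I to V it was least frequent in complex V. A peak was counted as at the gene start when its 5' edge lay within 100 bp of the start of its gene in RefSeq for GRCm38. In the control list 29 of 62 member peaks (46.8%, interval 34.9% to 59.0%) began there, against 6.73% of all peaks, and in the *Wtap*-BKO list 36 of 69 (52.2%, interval 40.6% to 63.5%), against 9.07%. Member genes are short, with a median span of 7818 bp against 23673.5 bp for all genes with peaks. On genes spanning up to 20000 bp the shares were 43.4% and 49.2% for members and 9.89% and 13.8% for all. In the other gene families that were compared the shares were lower. They were 12.7% (interval 7.02% to 21.8%) and 25.5% (15.8% to 38.3%) for mitochondrial ribosomal protein genes, 7.69% and 5.56% for cytosolic ribosomal protein genes, of which there were 13 and 18 peaks, and 19.2% (10.8% to 31.9%) and 25% (15.2% to 38.2%) for the assembly factors outside the rule. Near the gene end, on genes spanning at least 3000 bp, 10 of 54 control (18.5%, interval 10.4% to 30.8%) and 11 of 61 *Wtap*-BKO member peaks (18.0%, interval 10.4% to 29.5%) were centred no more than 1000 bp from it, against 21.6% and 19.2% of all peaks. Within 2000 bp it was 25.9% (interval 16.1% to 38.9%) and 24.6% (interval 15.5% to 36.7%), against 37.4% and 33.9%.

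**Figure D4:**
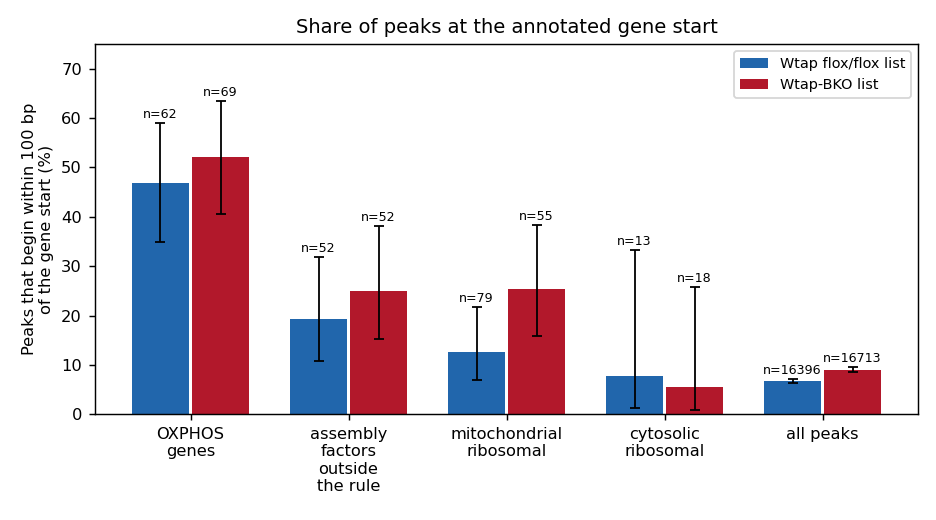
Percentage of peaks that begin within 100 bp of the annotated gene start (vertical axis) for gene groups (horizontal axis) in the control (blue) and *Wtap*-BKO (red) lists. Bars are shares, error bars are 95% Wilson intervals for counting error only, and n is the number of peaks placed on a gene; the oxidative phosphorylation (OXPHOS) genes reach 46.8% and 52.2%.

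Of 39 member genes with a peak at the gene start, 26 had one in both lists, 3 in the control list only (*Ndufs8*, *Ndufv2* and *Ndufc2*) and 10 in the *Wtap*-BKO list only. Among these 10, *Atp5k*, *Ndufaf1* and *Ndufv3* had a control peak that shares bases with the gene-start peak but began 185, 218 and 1487 bp from the start, outside the window. The others of the 10 had no such control peak. The same split over all genes is not given here. By complex the counts were as follows. In complex I, 18 of 39 control and 21 of 34 *Wtap*-BKO peaks lay at the start, in complex II 3 of 4 and 3 of 5, in complex III 2 of 3 and 3 of 5, and in complex IV 4 of 7 and 6 of 13. In complex V it was 2 of 9 and 3 of 11, and the strong peaks of *Atp5g3*, *Atp5h* and *Atp5j2* began 1138, 3886 and 3234 bp from the gene start in control mice. Of the members' gene-start peaks in the control list, 26 of 29 (89.7%, interval 73.6% to 96.4%) had a counterpart in the other list, and of their peaks elsewhere 16 of 33 (48.5%, interval 32.5% to 64.8%) had one. In the *Wtap*-BKO list it was 29 of 36 (80.6%, interval 65.0% to 90.2%) and 13 of 33 (39.4%, interval 24.7% to 56.3%). For all peaks these shares were 80.3% against 68.2%, and 61.0% against 69.9%.

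Pairs at the gene start were also compared apart from the others. Of 26 member pairs at the gene start, 23 had the higher percentile in *Wtap*-BKO mice, against 75.8% of all pairs at a gene start, and of 16 elsewhere 10 did, against 54.1%. The subunit pairs elsewhere had 10 of 14. Assembly factor pairs had 8 of 12 at the gene start and 10 of 26 elsewhere. Gene-start peaks in general therefore stood higher in the *Wtap*-BKO list, and the members hold many of them. What part position has in the members' values was not tested further than by these counts. Which modified base lies under a gene-start peak, and whether WTAP is needed for it, was not tested either.

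Member peaks were strong by FDR and weak by fold enrichment. Their median percentile by FDR was 66.2 in the control and 75.7 in the *Wtap*-BKO list, and by fold enrichment it was 20.0 and 19.9. A low median by fold enrichment was not particular to the members. In the same order, it was 24.96 and 13.8 for mitochondrial ribosomal protein genes and 18.9 and 15.2 for cytosolic ones. By FDR the medians were 74.7 and 61.9 for the mitochondrial family and 48.7 and 68.0 for the cytosolic one. The median fold enrichment in the authors' lists was 3.285 for member peaks and 6.58 for all peaks of the control list, and 2.575 and 4.65 for those of the *Wtap*-BKO list. *Cox5a* shows the form of it, with fold enrichments of 1.83 and 2.18 at the FDR given above. *Ndufs6* in the *Wtap*-BKO list, with a fold enrichment stronger than 99.4% of that list, was an exception. Members carried 1.15 peaks per gene in control and 1.30 in *Wtap*-BKO mice, against 1.89 and 1.92 for all genes. Of their peaks, 29.0% and 40% were split over more than 1 block, against 15.4% and 19.8%. The ribosomal protein families also had few peaks per gene, 1.29 and 1.27 for mitochondrial and 1 and 1 for cytosolic genes. Of the mitochondrial family's peaks 23.5% and 37.5% were split, and of the cytosolic family's 28.6% and 22.2%. Transcript levels were not measured from these lists, and their part in the FDR was not tested. Pseudogenes are a further limit, since 19 in RefSeq carry names that the rule takes in, and how reads were shared between gene and copy is not given.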

How the data were processed

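The 4 samples were an m6A IP and an input from iBAT of each genotype, each pooled from 8 mice, and were grouped by their titles and genotype labels. The submitters' processing notes name fastp 0.19.11, BWA 0.7.12, HOMER 4.9.1 and the build GRCm38.p6. The methods name MACS2, whereas the layout of the lists, in which a peak is written as exon blocks of an Ensembl gene, is that of exomePeak, and which caller was used could not be settled. The authors deposited 1 peak list per genotype, filtered at an FDR under 0.05. The deposited score column holds the p-value of each peak as the authors computed it. Other deposited columns give the log10 of this p-value and the log10 of the FDR, both handled as scores, and a ratio, the fold enrichment of IP over input within 1 genotype.

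From the lists, peaks were counted, ranked within their list and matched by shared exonic bases with numpy 2.4.6, pandas 2.3.3 and scipy 1.17.1 under Python 3.11.15 (figures: matplotlib 3.10.9). A pair is a control (*Wtap* flox/flox) peak with the *Wtap*-BKO peak that shares most bases with it. Positions are 1-based in GRCm38. Gene starts and ends came from the RefSeq table of GRCm38.p6, on which all 68 symbols matched, *Atp5f1* and *Atp5s* through their present names, and 131 of 132 member peaks lay on their gene. The 95% Wilson intervals of shares take each peak as independent and hold counting error alone. Depth is unknown, as the lists hold no read counts. No test was made between the genotypes, each being 1 pool. Matching was checked on simulated data, where all 18400 control peaks were found or missed as they had been made to be.

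The members, the gene lists and the comparisons were chosen with earlier results of these data known. Genes were named when they were in 1 list only, had the smallest FDR of their complex or class in a list, had at least 3 peaks in a list, had peaks in both lists without a shared base, encode catalytic or redox subunits, or belong to a family of paralogues. The other genes were named, and the gene-start rule and the classes of starting percentile were chosen, after values were seen. Sequences and motifs were not analysed here. The values of 1 member gene are not reported here, and it is counted but not drawn by name.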

Additional observations from a re-analysis of the deposited data

How the results depend on the processing

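Of 40 values recomputed under another setting, 30 stayed within 1.5 times the count, within the interval of the share or within 10 percentile points of the median, and 10 moved. With an FDR under 1e-05 required in both lists, 9 genes were in the control list only. Where a peak under 1e-05 in 1 list and no peak at all in the other was required, 8 genes were in the control list only and 7 in the *Wtap*-BKO list only. Among peaks under 1e-05, 79.6% of control and 72.7% of *Wtap*-BKO member peaks were found in the other list, and counting any peak on the same gene gave 77.1% for the latter. The shares over all peaks at these settings are not given here, so these values are not a result about the members. Ranked by fold enrichment, the median percentiles were 20.0 in control and 19.9 in *Wtap*-BKO mice. With a window of 50 bp, 33.9% of control and 34.8% of *Wtap*-BKO member peaks were at the gene start, against 4.60% and 6.55% of all peaks. The windows at the gene start and the alternatives for the pairs were chosen after seeing the data. The cause was not tested for any of these. No paired analysis was possible because each genotype is 1 pooled sample, and no replicate could be left out. The depth behind the lists is unknown, so a peak missing from 1 list may be one that was not detectable at its depth, and the weak genes listed once are the values most open to this.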
